A study of Mus musculus with 60 samples.

Results

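The 6 long noncoding RNAs Malat1, Neat1, Kcnq1ot1, Gas5, Snhg1 and Snhg12 were followed through 3′-end RNA-seq libraries of mouse intrahepatic cholangiocyte organoids, hollow epithelial structures grown from bile duct cells of the adult liver. Malat1, Neat1 and Kcnq1ot1 are retained in the nucleus. Gas5, Snhg1 and Snhg12 are host genes of small nucleolar RNAs (snoRNAs). The members were chosen with earlier results of these data known, and their rows were found by gene symbol through the Ensembl identifier. All 6 were found in each of the 3 count tables. These held 23440 genes for the culture formats, 23068 for the passages and 28773 for the single organoids. All 6 passed the filter on low counts in every comparison.

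The organoids came from livers of C57BL/6N mice, 3-4 months old, with no other allele or agent in any group. In the first experiment, 3 Dome cultures, kept in drops of solid Matrigel, were set against 3 Suspension cultures, kept in dilute Matrigel on an orbital shaker, and each replicate was a pool of digested liver from several males. In the second, bulk cultures of Sets 1, 3 and 4 were sequenced at passage 4 and again at passage 11, with 2 technical replicates each, and the labels do not state their culture format. In the third, 42 single organoids were picked from suspension cultures, of which the 35 kept by the study are used here, 8 from Set 1 at passage 11, 10 from Set 2 at passage 3, 5 from Set 3 at passage 3 and 12 from Set 4 at passage 4. Each set is the liver of a single mouse at a single passage, so that mouse and passage cannot be told apart between sets. Library totals were 1776490 to 14761853 counts for the culture formats, 1486347 to 5532630 for the passages after summing technical replicates, and 1059002 to 11175868 for the 35 single organoids. The epithelial identity held in the data, as all 9 epithelial and cholangiocyte markers were in every table with a summed level of at least 5505 CPM (counts scaled to a library total of 1000000) in each library, while mesenchymal markers summed to at most 0.722 CPM and endothelial markers to at most 4.01 CPM in any group.

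Malat1 is an abundant RNA of nuclear speckles, the compartments that store splicing factors, and its mature 3′ end is made by RNase P cleavage and protected by a triple helix in place of a conventional poly(A) tail. Neat1 is the scaffold of paraspeckles, and only its shorter isoform is polyadenylated. Kcnq1ot1 is transcribed antisense from within Kcnq1 on the paternal chromosome and silences neighbouring imprinted genes in cis. Introns of Gas5, Snhg1 and Snhg12 carry snoRNAs, which guide chemical modification of ribosomal and other RNAs. Their spliced exons carry little or no coding capacity and are degraded during translation by nonsense-mediated decay (NMD), so that their abundance depends on both transcription and turnover. Transcription of such hosts typically starts at a terminal oligopyrimidine (TOP) sequence, a motif shared with ribosomal protein genes.

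In the GRCm38 annotation, Malat1 (ENSMUSG00000092341) lies on the minus strand of chromosome 19 at 5795690 to 5802672, and Neat1 (ENSMUSG00000092274) on the same strand at 5824708 to 5845478, with 22035 bases between them. Kcnq1ot1 (ENSMUSG00000101609) is a single exon of 93092 bases on the minus strand of chromosome 7, at 143203458 to 143296549, antisense to Kcnq1. Gas5 (ENSMUSG00000053332) lies on the plus strand of chromosome 1 at 161034422 to 161038539 and overlaps Zbtb37 on the opposite strand. Snhg1 (ENSMUSG00000108414) occupies 8723475 to 8726443 of chromosome 19 and Snhg12 (ENSMUSG00000086290) occupies 132308623 to 132311024 of chromosome 4, both on the plus strand. The annotation places 10 snoRNA records inside Gas5, of which 1 carries the name of a microRNA (Mir5117), 8 inside Snhg1 and 5 inside Snhg12, counting overlapping records separately, and none inside the nuclear RNAs. The snoRNAs themselves were not analysed here. The sources used here do not say whether counting used strand, so reads of Kcnq1ot1 and unspliced Kcnq1, and of Gas5 and Zbtb37, cannot be separated with certainty. As a property of the transcripts that bears on 3′-end libraries, the longest run of A within the longest annotated transcript was 41 bases in Kcnq1ot1, which held 30 runs of at least 8, and was 12 bases in Malat1, 7 in Neat1, 12 in Snhg12 and 5 in both Gas5 and Snhg1. The part of internal A runs in the counts was not tested.

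The start sites show where the hosts and the nuclear RNAs differ in sequence. RefSeq promoter entries of build GRCm38.p6 were found for 5 members, and Neat1 had no entry. The following windows run 5′ to 3′ from 50 bases before to 30 bases from the start, on the strand of the gene. Capitals mark TATA lying between 40 and 20 bases before the start, and a run of at least 5 C or T bases that begins with C within 5 bases of the start.
Gas5, chr1:161035116-161035195, plus strand: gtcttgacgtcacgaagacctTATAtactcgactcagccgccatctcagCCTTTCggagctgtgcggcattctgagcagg
Snhg12, chr4:132308628-132308707, plus strand: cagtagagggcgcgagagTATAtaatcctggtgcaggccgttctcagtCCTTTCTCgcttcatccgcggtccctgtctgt
Snhg1, chr19:8723437-8723516, plus strand: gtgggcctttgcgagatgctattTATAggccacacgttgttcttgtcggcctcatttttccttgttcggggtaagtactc
Malat1, chr19:5802643-5802722, minus strand: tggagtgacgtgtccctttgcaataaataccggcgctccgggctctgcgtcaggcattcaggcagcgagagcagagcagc
Kcnq1ot1, chr7:143296518-143296597, minus strand: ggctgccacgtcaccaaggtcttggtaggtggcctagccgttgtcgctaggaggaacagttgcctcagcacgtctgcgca

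Each host window held the TATA letters, and neither nuclear window did. Gas5 carried a pyrimidine run of 6 bases and Snhg12 a run of 8, while the run beginning with C at the Snhg1 start was 4 bases and fell short of the rule. Gas5 has a second listed start further upstream with 1 transcript, against 10 transcripts starting within 10 bases of the window printed here, and that upstream window held neither motif. On the sense strand of all 32851 promoters of the same length, 5.81% held TATA in this window, 18.3% held such a pyrimidine run and 1.08% held both. A match describes letters in the window and says nothing of binding or use.

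The comparison of culture formats asks how transferring organoids from solid drops to a shaken dilute matrix changes their transcriptome. The 3 nuclear RNAs were far lower in Dome than in Suspension, by 10.1-fold for Malat1, 7.15-fold for Neat1 and 15.9-fold for Kcnq1ot1 in mean CPM, whereas Gas5 was 1.59-fold higher in Dome. The remaining hosts, Snhg1 and Snhg12, did not pass the test in either direction. Levels are given as CPM of the library total, and tests come from edgeR's quasi-likelihood F-test after TMM normalisation, with Benjamini-Hochberg (BH) adjustment over all genes tested and a threshold of 0.05.

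Malat1 reached 1443, 1117 and 886 CPM in the 3 Suspension replicates and 168, 117 and 56.9 CPM in the 3 Dome replicates, with means of 1149 ± 280 and 114 ± 55.9 (SD, n = 3). The lowest Suspension value lay well above the highest Dome value. On the TMM scale the log2 fold-change of Dome over Suspension was -2.88 ± 0.42 (SE) with an edgeR adjusted p of 0.00201.

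Neat1 stood at 132, 140 and 176 CPM in Suspension and at 20.7, 22.3 and 19.7 CPM in Dome, so that the Dome replicates were nearly level with each other. Its log2 fold-change was -2.43 ± 0.22 (SE), with an edgeR adjusted p of 0.000563.

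Kcnq1ot1 was counted 130, 64 and 303 times in the Suspension libraries, which is 31.1, 16.7 and 25.1 CPM. In Dome it was counted 36, 3 and 1 times, or 2.44, 1.59 and 0.563 CPM, and the shallow Dome replicates 2 and 3 therefore set its level only roughly. The groups did not overlap, and the log2 fold-change was -3.24 ± 0.40 (SE) with an edgeR adjusted p of 0.00113.

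Gas5, named for its accumulation in growth-arrested cells, measured 416, 516 and 431 CPM in Suspension and 663, 777 and 727 CPM in Dome. Every Dome value exceeded every Suspension value. The log2 fold-change was 1.08 ± 0.24 (SE) with an edgeR adjusted p of 0.009. This call was lost without Suspension replicate 1 (log2 fold-change 1.04, edgeR adjusted p 0.057) and without Suspension replicate 3 (1.01, edgeR adjusted p 0.0559), while the direction stayed in all 15 alternatives.

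Snhg1 measured 79.3, 76.6 and 73.1 CPM in Suspension and 53.5, 66.8 and 51.2 CPM in Dome, with all Dome values below all Suspension values in CPM. Snhg12 measured 24.6, 26.1 and 20.5 CPM in Suspension and 17.7, 23.3 and 14.6 CPM in Dome, with overlap. On the TMM scale the log2 fold-change of Snhg1 was 0.00 (95% interval by a normal approximation, -0.46 to 0.47) and that of Snhg12 was 0.07 (-0.50 to 0.63). The approximation makes these bounds too narrow for 3 replicates. Differences of either sign at least within them were not resolved.

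**Figure D1:**
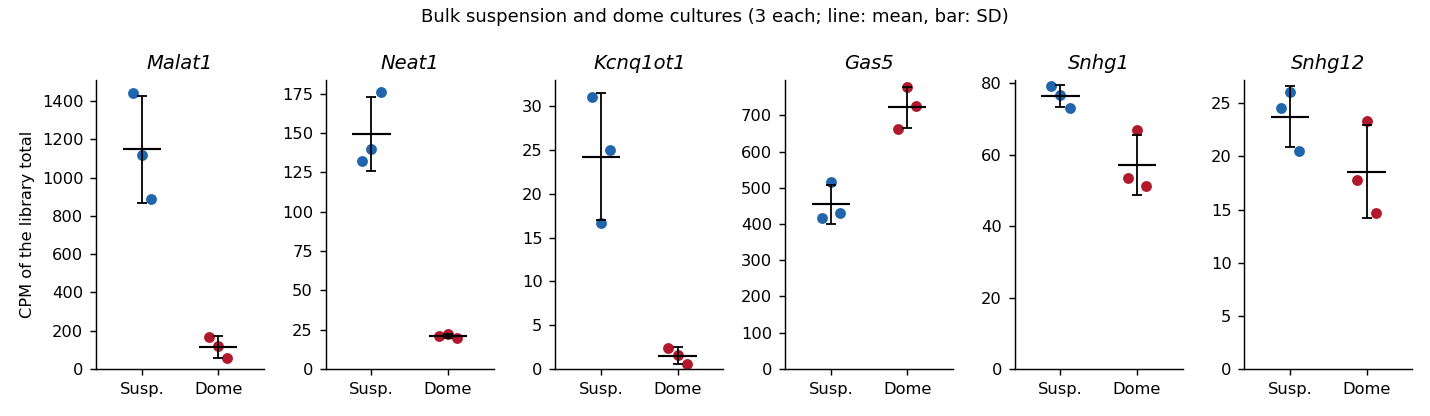
CPM of the library total (linear axes from 0, a scale for each gene) in 3 Suspension and 3 Dome bulk cultures for the 6 members, with points for replicates, a line for the mean and a bar for the SD. The nuclear RNAs fall from 886 to 1443 CPM (Malat1), 132 to 176 CPM (Neat1) and 16.7 to 31.1 CPM (Kcnq1ot1) in Suspension to at most 168, 22.3 and 2.44 CPM in Dome, while Gas5 is higher in Dome.

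Of the 12699 genes tested, 29.8% passed the test in either direction, 14.7% lower in Dome and 15% higher, and 48.5% had replicate values that did not overlap between the formats. Against this, 3 members were called lower and 1 higher, and 5 did not overlap. On the TMM scale Malat1, Neat1 and Kcnq1ot1 were 7.38-, 5.38- and 9.44-fold lower in Dome, and Gas5 was 2.12-fold higher. The gap between CPM and TMM values thus touches the size of every difference. Scaling by the library total moved the median log2 fold-change of all genes from -0.04 to -0.42. Under that scaling the calls of the members were the same, but the values of Snhg1 and Snhg12 turned negative (-0.42 and -0.35), so that their direction depends on the scaling. The replicate number, treated as a block, changed no call of a member. The share of mitochondrial counts was 1.64% to 2.02% in Dome and 3.72% to 4.02% in Suspension, and the calls of the members were the same with these counts left out of the totals. Of the macrophage markers, 5 of 8 were in the table. Their summed level was 6.16 to 67.4 CPM in Dome and 3.82 to 10.4 CPM in Suspension. Cd68 made up most of the Dome sum, at 5.35 to 65.2 CPM. Only 2 of these markers were tested. Cd68 rose in Dome (log2 fold-change 3.06, edgeR adjusted p 0.0223), while the other had a negative log2 fold-change and was not called. The part of macrophage RNA in the differences of the members was not tested. In bulk samples fewer cells of a type and less RNA per cell cannot be told apart.

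Genes that work with these RNAs were counted over lists. Of 15 tested genes for nuclear speckle proteins, 11 fell in Dome and none rose, with a median log2 fold-change of -1.01 beside -0.04 over all genes. Pnn, a speckle protein associated with splicing, fell by 2.79 on the log2 scale, the splicing-related Pnisr by 2.54 and the splicing scaffold Srrm2 by 1.60. Of 16 tested paraspeckle proteins, 7 fell and none rose, including Sfpq at -0.98, a core paraspeckle protein, Hnrnph3 at -1.14 and the chromatin remodeller Smarca4 at -1.16. Of 9 tested proteins of snoRNA particles, 5 fell and none rose, led by the box C/D core protein Nop58 at -1.71, the nucleolar chaperone Nolc1 at -1.33 and the pseudouridine synthase Dkc1 at -1.24. Of 10 tested NMD factors, 3 fell and none rose, namely Upf3b at -1.89, the kinase Smg1 at -1.20 and Upf2 at -1.19. Scaling by the library total left 0 genes of these 4 lists called higher and between 3 and 13 called lower.

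Among 11 other snoRNA hosts tested, 2 rose and 3 fell, 9 had a negative log2 fold-change and the median was -0.27. Under the library total, with or without mitochondrial genes, 1 rose and 5 fell. On the TMM scale the called hosts included Zfas1 at 1.71, Dancr at -1.71 and Snhg20 at -1.11 on the log2 scale. Other long noncoding RNAs gave 1 rise, the microRNA host Mir22hg at 1.66, and 3 falls among 9 tested among them the microRNA host Mir17hg at -2.67. Ftx, an RNA of the X-inactivation centre, was also called lower, but it stood at only 1.56 to 1.91 CPM in Suspension and at 0 to 0.135 CPM in Dome. Among the 9 tested genes of the imprinted domain that Kcnq1ot1 controls, 4 rose in Dome and none fell, with a median of 0.67. Slc22a18, a transporter gene, was at 1.65, Kcnq1, the potassium channel gene that contains Kcnq1ot1, at 1.28, and Cd81, a tetraspanin gene, at 1.01. With library total scaling 3 rose, and 2 when mitochondrial genes were also left out of the total. On the TMM scale Kcnq1ot1 and Kcnq1 were called in opposite directions.

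The passage experiment compares the same 3 cultures early and late in expansion. All 6 members were lower at passage 11 than at passage 4, in each of the 3 cultures. Mean CPM at passage 4 was 7.61-fold that at passage 11 for Malat1, 5.52-fold for Neat1 and 5.51-fold for Kcnq1ot1, against 2.24-fold for Gas5, 2.45-fold for Snhg1 and 3.81-fold for Snhg12. Of the 13738 genes tested, 20.3% passed in either direction and 10.1% were called lower at passage 11, and 38.6% had values that did not overlap, beside 6 of 6 members for each of these.

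Malat1 went from 1316 to 113 CPM in Set 1, from 965 to 164 CPM in Set 3 and from 1167 to 176 CPM in Set 4. Its log2 fold-change was -2.94 ± 0.18 (SE) with an edgeR adjusted p of 7.3e-05. Neat1 went from 359 to 28.4 CPM in Set 1, from 170 to 48.0 CPM in Set 3 and from 208 to 57.2 CPM in Set 4, with a log2 fold-change of -2.51 ± 0.30 (SE) and an edgeR adjusted p of 0.000913. For both RNAs, Set 1 was the highest culture at passage 4 and the lowest at passage 11. Kcnq1ot1 went from 24.8 to 4.14 CPM, from 29.8 to 4.66 CPM and from 23.5 to 5.38 CPM in Sets 1, 3 and 4, and its log2 fold-change was -2.49 ± 0.22 (SE) with an edgeR adjusted p of 0.000343.

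Gas5 dropped from 1354 to 546 CPM in Set 1, from 958 to 448 CPM in Set 3 and from 869 to 423 CPM in Set 4 (log2 fold-change -1.16 ± 0.21 SE, edgeR adjusted p 0.00563). Snhg1 dropped from 294 to 101 CPM, from 194 to 86.1 CPM and from 148 to 72.7 CPM in the same order (log2 fold-change -1.27 ± 0.26 SE, edgeR adjusted p 0.00842). Snhg12 dropped from 162 to 33.4 CPM, from 68.1 to 21.7 CPM and from 61.5 to 21.5 CPM (log2 fold-change -1.88 ± 0.38 SE, edgeR adjusted p 0.00829). Set 1 held the highest level of every host at both passages. All 6 calls were the same in each of 17 alternatives, the block on the culture included, with log2 fold-changes between -3.04 and -0.93.

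**Figure D2:**
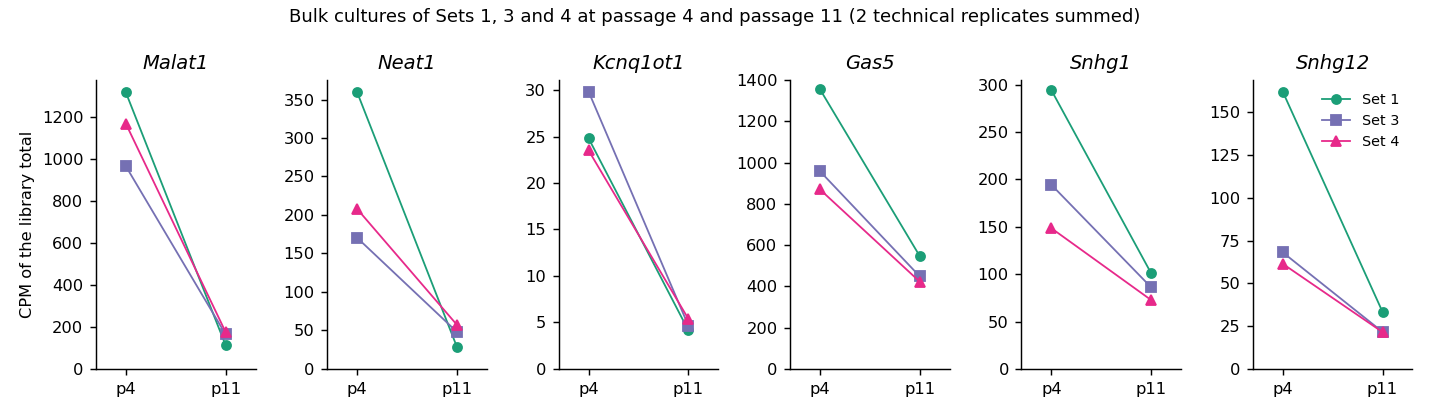
CPM of the library total (linear axes from 0, a scale for each gene) at passage 4 and passage 11 for the 6 members, with a line for each of the 3 cultures and the 2 technical replicates summed. Every line falls, from 965 to 1316 CPM down to 113 to 176 CPM for Malat1 and from 869 to 1354 CPM down to 423 to 546 CPM for Gas5.

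Malat1 also differed between technical replicates of the early cultures. At passage 4 the paired libraries gave 1796 and 975 CPM in Set 1, 688 and 1207 CPM in Set 3, and 828 and 1623 CPM in Set 4, which is 1.84-, 1.75- and 1.96-fold. The higher library was technical replicate 1 in Set 1 and technical replicate 2 in Sets 3 and 4. These ratios lay at the 99.8th, 99.9th and 99.7th percentiles of all genes with at least 100 counts in both libraries, where the median gene differed by 1.07- to 1.08-fold. At passage 11 the Malat1 pairs differed by 1.26-, 1.05- and 1.03-fold, at the 97.2nd, 48.5th and 27.7th percentiles. The ratio of Set 1 was thus high among genes at passage 11 too. Among the other members with that many counts at passage 4, the largest ratio was 1.36-fold, for Neat1 in Set 4, and Kcnq1ot1 in Set 1 differed by 1.77-fold on fewer counts. In each culture the passage 4 library with more Malat1 also had more Neat1 and Kcnq1ot1. With technical replicate 1 first, Neat1 had 372 and 350 CPM in Set 1, 163 and 176 in Set 3, and 180 and 245 in Set 4. Kcnq1ot1 had 33.3 and 18.8 CPM, 29.1 and 30.5 CPM, and 23.0 and 24.2 CPM in the same sets. At passage 11 the 3 nuclear RNAs did not shift together in any culture. Using technical replicate 1 or 2 alone left all member calls in place. The share of mitochondrial counts was 0.895% to 1.71% at passage 11 and 1.99% to 2.63% at passage 4, and all member calls were the same with these counts left out of the totals. Hepatocyte markers moved with passage as well, since 2 of 5 tested were higher at passage 11 and none lower, with a median log2 fold-change of 0.73, and their summed level was 736 to 1220.4 CPM at passage 11 and 309 to 757 CPM at passage 4. Their part in the differences of the members was not tested.

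The same lists were counted for passage. Of 9 tested proteins of snoRNA particles, 7 rose at passage 11 and none fell, with a median of 0.60 beside -0.05 over all genes (6 and 5 rises under the library total with and without mitochondrial genes), while the snoRNA host members fell. Nolc1 was at 0.82, Dkc1 at 0.73 and the H/ACA protein Nop10 at 0.73 on the log2 scale. Speckle proteins were split, with 4 higher and 4 lower among 15 tested, Pnisr at -1.33 and Pnn at -0.83 against the splicing factor Srsf3 at 0.88. Paraspeckle proteins gave 5 rises and 1 fall among 16, with the core protein Pspc1 at 0.92, Rbm14 at 0.92 and the cleavage factor subunit Cpsf7 at -0.97. NMD factors gave 3 falls among 10 tested, among them Smg1 at -1.51 and Upf2 at -0.70. Of 11 other snoRNA hosts, 4 fell and none rose, with a median of -0.89. Snhg5 was at -1.69, Snhg20 at -1.46 and Zfas1, which was higher in Dome in the other experiment, at -1.39. Of 9 other long noncoding RNAs, 2 fell and none rose, the nuclear RNA Firre at -2.52 and Mir22hg at -1.13. In the Kcnq1ot1 domain 2 of 9 tested genes rose, the transcription factor gene Ascl2 at 2.54 and Tssc4 at 0.65. Under the library total, with or without mitochondrial genes, 1 gene of this domain and 3 paraspeckle proteins rose. Kcnq1 was at 0.33 with an edgeR adjusted p of 0.267 and was not called, which does not show that its level was unchanged. Silencing of the domain by Kcnq1ot1 was not tested.

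Single organoids showed how far the members spread, first with all sets pooled and then within sets. Over the 35 organoids, Malat1 ranged from 381 through a median of 1692 to 6508 CPM, Neat1 from 85.3 through 218 to 691 CPM, and Kcnq1ot1 from 9.17 through 30.4 to 97.5 CPM. Gas5 ranged from 257 through 318 to 527 CPM, Snhg1 from 41.7 through 56.7 to 139 CPM, and Snhg12 from 10.6 through 18.4 to 37.3 CPM. The nuclear RNAs thus covered a wider relative range than the hosts, though these pooled ranges also hold the differences between sets.

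The SD of log2 CPM within sets was 0.77 for Malat1, 0.68 for Kcnq1ot1 and 0.61 for Neat1, at the 94th, 86th and 74th percentiles of all genes tested. It was 0.34 for Gas5, 0.37 for Snhg1 and 0.38 for Snhg12, at the 17th, 25th and 26th percentiles, beside a median of 0.48 over all genes. These are descriptions of 35 organoids from 4 mice. After thinning all libraries to the smallest total, Snhg12 stood at the 40th percentile and Neat1 at the 85th. The span of Malat1, as the ratio of the highest to the lowest organoid, was 4.59-fold in Set 1, 9.51-fold in Set 2, 2.52-fold in Set 3 and 5.64-fold in Set 4. Within Set 3, with 5 organoids, Snhg1 stayed between 47.8 and 51.0 CPM and Snhg12 between 18.9 and 22.9 CPM.

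A pair of organoids stood apart in several members. Set 2 organoids 2 and 6 had 601 and 561 CPM of Malat1 and 13.1 and 16.9 CPM of Kcnq1ot1, the lowest values of their set, and 119 and 139 CPM of Snhg1, 37.0 and 37.3 CPM of Snhg12 and 444 and 465 CPM of Gas5, the highest of their set. Their totals of 1298591 and 1180937 counts were the lowest among the kept organoids of Set 2. Without them the Malat1 span of Set 2 was 3.58-fold, below those of Sets 1 and 4. The SD within sets then fell to 0.60 for Malat1, 0.58 for Neat1 and 0.57 for Kcnq1ot1, at the 77th, 74th and 72nd percentiles, and to 0.33 for Gas5, 0.25 for Snhg1 and 0.27 for Snhg12, at the 18th, 5th and 6th percentiles, beside a median of 0.45. The nuclear RNAs were again more variable than the hosts by this measure. This spread includes that of library making. Technical pairs of the bulk passage 4 cultures differed by 1.75- to 1.96-fold in Malat1 and by 1.04- to 1.10-fold in Gas5. The part of library making in the spread between organoids was not tested.

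Between sets, medians of Malat1 were 2437 CPM in Set 1, 2531 in Set 2, 1817 in Set 3 and 901 in Set 4. Set 1, at passage 11, was set against Sets 2 to 4, at passages 3 and 4, in a fit of all 35 organoids. P-values of this fit, also for the pairs of sets below, measure the spread between organoids within sets. Each set came from 1 mouse, so they do not measure the spread between mice. Malat1 was higher in Set 1 (log2 fold-change 0.89 ± 0.26 SE, edgeR adjusted p 0.0131, or 0.80 and 0.00722 without Set 2 organoids 2 and 6). No other member passed. Neat1 had a log2 fold-change of 0.32 (edgeR adjusted p 0.350), Kcnq1ot1 of -0.07 (0.894), Gas5 of 0.12 (0.651), Snhg1 of -0.09 (0.765) and Snhg12 of -0.16 (0.556). Of the 13927 genes tested 18% passed, 10.3% higher and 7.73% lower in Set 1, so that 1 of 6 members is near the background. No member was called lower in the organoids of Set 1, the late passage, than in those of the early sets.

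Pairwise tests of the sets, adjusted over all genes and 6 comparisons together, called 6 differences of nuclear RNAs, all of them with the lower level in Set 4. Malat1 was higher in Set 1 than in Set 4 (log2 fold-change 1.52, edgeR adjusted p 0.000462) and in Set 2 than in Set 4 (1.22, edgeR adjusted p 0.00301). Neat1, with medians of 287, 354, 218 and 159 CPM in Sets 1 to 4, was higher in Set 2 than in Set 4 (1.11, edgeR adjusted p 0.0014). Its difference of Set 1 from Set 4 (0.77, edgeR adjusted p 0.0382) was lost under 5 alternatives, among them scaling by library total at 0.0616 and all 42 organoids at 0.0987. Kcnq1ot1, with medians of 39.8, 54.2, 42.2 and 22.2 CPM, was higher in Set 2 than in Set 4 (1.24, edgeR adjusted p 0.000819) and in Set 3 than in Set 4 (1.18, edgeR adjusted p 0.00718), and the second call was lost without Set 3 organoid 3 (0.82, edgeR adjusted p 0.0923). Kcnq1ot1 in Set 1 and Set 4 (0.74, edgeR adjusted p 0.0649) and Neat1 in Set 2 and Set 3 (0.89, edgeR adjusted p 0.0583) missed the threshold, and both passed it without Set 2 organoids 2 and 6 (edgeR adjusted p 0.032 and 0.0192). Malat1 gave no call among Sets 1, 2 and 3. Gas5 and Snhg12 gave no call in any pair, with set medians of 298 to 345 CPM and 16.5 to 20.2 CPM. Snhg1 was called higher in Set 2 than in Set 3 (0.65, edgeR adjusted p 0.0426), and this was lost without each Set 3 organoid in turn (edgeR adjusted p 0.0522 to 0.0858) and without Set 2 organoids 2 and 6 (0.32, edgeR adjusted p 0.205). The shares of all genes passing were 20.0% for Set 1 and Set 4, 12.4% for Set 2 and Set 4, 11.6% for Set 3 and Set 4 3.93% for Set 2 and Set 3, 14.3% for Set 1 and Set 2 and 9.43% for Set 1 and Set 3.

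Among fixed lists in the Set 1 comparison, changes were few. Of 14 other snoRNA hosts tested, 3 fell in Set 1 and none rose, with Snhg18 at -2.90, Snhg11 at -1.59 and Snhg5 at -0.63 on the log2 scale. Snhg18 and Snhg11 were near the floor in the bulk samples, at most 2.12 and 0.542 CPM. Their levels in the organoids are not given here. Of 11 other long noncoding RNAs 2 rose, the X-linked Jpx at 1.30 and Dleu2 at 0.56. Jpx was low in the bulk samples, at most 2.69 CPM, as was Alb, a hepatocyte marker named below, at most 5.96 CPM. Speckle proteins gave 2 falls among 16 (Srsf7 at -0.64 and Ddx39b at -0.37), paraspeckle proteins 2 falls among 16 (Rbm14 at -0.60 and Hnrnpk at -0.39), and the 9 snoRNA particle proteins and 10 NMD factors no call under TMM. Slc22a18 of the imprinted domain rose by 0.62. Of 5 hepatocyte markers tested, 4 were called higher in Set 1, among them Apoa1 at 2.69 and Alb at 1.98. Their summed level was 599 to 2383 CPM in Set 1 and 456 to 2497 CPM over Sets 2 to 4. The median sum was 1283 CPM in Set 1 and 912, 575 and 1548 CPM in Sets 2, 3 and 4, so that Set 4 was above Set 1. The part of hepatocyte markers in the Malat1 difference was not tested.

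Within sets, organoids with more of a nuclear RNA had more of the others. Over the 35 organoids, with the set means removed, Malat1 and Neat1 had a Pearson's r of 0.83 and a Spearman's rho of 0.84, Malat1 and Kcnq1ot1 an r of 0.75 and rho of 0.71, and Neat1 and Kcnq1ot1 an r of 0.60 and rho of 0.62. The permutation p of the pair Malat1 and Neat1 was 1e-05 for both measures, the smallest that 100000 permutations within sets can give, and after BH adjustment over the 15 pairs of members it was 0.00015, with 0.00142 the highest of the 3 adjusted p-values of r. Leaving out the pair of organoids farthest from the median gave r of 0.84, 0.65 and 0.59. Within Sets 1, 2 and 4 taken alone, r of Malat1 and Neat1 was 0.83, 0.82 and 0.89. The nuclear RNAs also shifted together between technical replicates of the bulk passage 4 cultures. Single organoids had no technical replicates, so the part of library making in these relations was not tested.

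The hosts were positively related among themselves too, with r of 0.65 for Gas5 and Snhg1 (rho 0.49), 0.78 for Snhg1 and Snhg12 (rho 0.71) and 0.44 for Gas5 and Snhg12 (rho 0.38), and permutation p-values after BH adjustment of 0.0005, 0.000637 and 0.0164. All 9 pairs of a nuclear RNA with a host were negative in r, from -0.61 for Neat1 and Gas5 to -0.26 for Neat1 and Snhg12, and 6 of them had an adjusted permutation p under 0.05. These values rest in part on the pair of Set 2 organoids named above. Without them, over 33 organoids, the pairs of members under 0.05 fell from 12 to 6 of 15. The nuclear RNAs held with r of 0.84, 0.61 and 0.51, and Gas5 and Snhg1 with 0.58 and Snhg1 and Snhg12 with 0.52, whereas Gas5 and Snhg12 dropped to 0.23 (adjusted permutation p 0.384). Of the negative pairs Neat1 and Gas5 remained (r -0.55, rho -0.56, adjusted permutation p 0.00765), Kcnq1ot1 and Gas5 had an r of -0.40 (0.0548, with rho -0.47 at 0.021), Malat1 and Gas5 -0.35 (0.130), Malat1 and Snhg1 -0.21 (0.384), Kcnq1ot1 and Snhg1 -0.21 (0.384) and Malat1 and Snhg12 -0.10 (0.698). Scaling by the library total also took Malat1 and Snhg1 to -0.42 (adjusted permutation p 0.0709) and Malat1 and Snhg12 to -0.29 (0.219). None of 12 relations of a member to the library total or to the mitochondrial share passed after adjustment, the closest being Neat1 with the mitochondrial share at r 0.45 and rho 0.46 (adjusted permutation p 0.116). Within Sets 1 and 4 taken alone, all 3 nuclear RNAs were higher at a higher mitochondrial share, with r of 0.55, 0.84 and 0.70 for Malat1, Neat1 and Kcnq1ot1 in Set 1 and of 0.52, 0.61 and 0.56 in Set 4. They were lower at a higher log2 library total, with r of -0.41, -0.73 and -0.65 in Set 1 and of -0.47, -0.62 and -0.40 in Set 4. In Set 2 the relations to the total had the other sign, at 0.51, 0.15 and 0.41. Those to the mitochondrial share were -0.06, 0.33 and -0.29 there, so that only Neat1 kept the direction of Sets 1 and 4. The part of either measure in the relations among members was not tested. Within Set 2, which holds the pair, Snhg1 and Snhg12 had r of -0.87 and -0.73 with the log2 library total.

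**Figure D3:**
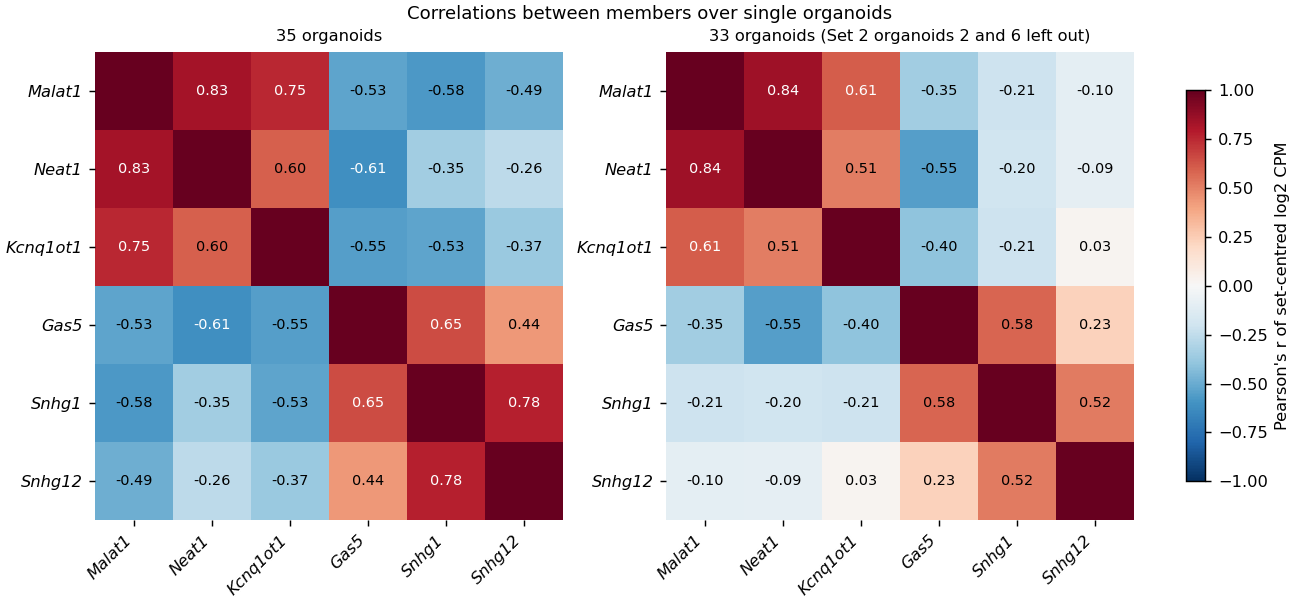
Pearson's r of log2 CPM with the set means removed (colour and printed values, -1 to 1) between the 6 members over 35 single organoids at the left and over 33, without Set 2 organoids 2 and 6, at the right. The nuclear RNAs stay positively related (0.60 to 0.83, then 0.51 to 0.84), while the negative values between nuclear RNAs and hosts shrink apart from Neat1 with Gas5 (-0.61 and -0.55).

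The genes whose pattern over the 35 organoids was most like each member, by the same r among the 6484 genes that averaged 4 or more in log2 CPM are named as a description. For Malat1 they were the transcription factor gene Elf1 (0.88), B230219D22Rik (0.86) and Filip1l (0.86), while Neat1 ranked 17th and Kcnq1ot1 233rd. For Neat1 they were the zinc finger gene Zfp644 (0.83), Malat1 (0.83) and the membrane-bound transcription factor gene Myrf (0.82), and Kcnq1ot1 ranked 533rd. For Kcnq1ot1 they were the kinase genes Rock1 (0.87) and Csnk1g1 (0.87) and the RNA export gene Thoc2 (0.86), while Malat1 ranked 194th and Neat1 1122nd. For Gas5 they were the ribosomal protein genes Rps29 (0.90) and Rpl22 (0.89) and the signal recognition particle gene Srp14 (0.89), while Snhg1 ranked 817th and Snhg12 1852nd, so that many other genes were closer to Gas5 than its fellow hosts. For Snhg1 they were Trmt112 (0.84), which encodes a methyltransferase partner, Adprh (0.84) and the zinc transporter gene Slc39a11 (0.84), with Snhg12 ranked 24th and Gas5 225th. For Snhg12 they were Yaf2 (0.78), Snhg1 (0.78) and the glutaminyl-tRNA synthetase gene Qars (0.76), and Gas5 ranked 455th. Without Set 2 organoids 2 and 6, r was 0.79 for Malat1 with Elf1, 0.80 for Neat1 with Zfp644, 0.79 for Kcnq1ot1 with Rock1, 0.89 for Gas5 with Rps29, 0.72 for Snhg1 with Trmt112 and 0.60 for Snhg12 with Yaf2. Malat1 and Neat1 then ranked 1st for each other, at 0.84. Snhg1 fell from 2nd to 17th for Snhg12, and Snhg12 from 24th to 217th for Snhg1, both at 0.52. Gas5 rose from 225th to 104th for Snhg1. Slc39a11 ranked 26th for Snhg1, and Rock1 ranked 7th for Kcnq1ot1, so several of the ranks above rest in part on these organoids. The organoids of a set share a mouse and a culture, so these are not independent points.

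Single organoids were set beside the bulk cultures by level and overlap, with no test, since the tables were made separately and mRNA was captured from single organoids on oligo-dT beads at an input set by Actb qPCR while bulk total RNA was purified on columns. Extraction, processing and the sampling of single organoids cannot be told apart here. Beside the Suspension bulk, the format the organoids were picked from, all 6 members overlapped, where 17.7% of 13835 genes did not. For the hosts this overlap rested on few organoids. Of 35 organoids, 31, 31 and 25 were below every Suspension culture in Gas5, Snhg1 and Snhg12, and 1, 2 and 3 were above. In Malat1, Neat1 and Kcnq1ot1, 20, 26 and 17 were above every culture, and 8, 4 and 5 were below. The median organoid was 1.52-fold the median Suspension culture for Malat1, 1.56-fold for Neat1 and 1.21-fold for Kcnq1ot1. It was 0.737-, 0.740- and 0.746-fold for Gas5, Snhg1 and Snhg12.

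Beside Dome, all 35 organoids were above every culture in the 3 nuclear RNAs, with medians 14.4-, 10.5- and 19.1-fold higher for Malat1, Neat1 and Kcnq1ot1, and all were below in Gas5, where the Dome median was 2.29-fold the organoid median. In this comparison 19.9% of genes lay above and 6.48% below. Beside bulk passage 11 the nuclear RNAs were again above in all 35 organoids (10.3-, 4.54- and 6.52-fold), as 13.8% of genes were. The hosts overlapped, where 27.4% of genes did not. Most organoids were still below every passage 11 sample in the hosts, 31 in Gas5, 31 in Snhg1 and 27 in Snhg12. Beside bulk passage 4 the full separation lay in the hosts instead. The nuclear RNAs overlapped and the hosts were below in all 35 organoids, as were 12.7% of genes, with bulk medians 3.01-fold the organoid median for Gas5, 3.43-fold for Snhg1 and 3.71-fold for Snhg12.

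The passage and mouse can be matched in a pair of cases, each with 1 bulk sample. The 8 organoids of Set 1 at passage 11 had 1419 to 6508 CPM of Malat1 beside 113 CPM in the bulk of Set 1 at passage 11, and their medians were 21.5-, 10.1- and 9.61-fold the bulk for Malat1, Neat1 and Kcnq1ot1. Their hosts were below the bulk, which was 1.69-, 1.81- and 2.02-fold the organoid median for Gas5, Snhg1 and Snhg12. With a single bulk value 61.2% of genes did not overlap, 33.9% above and 27.3% below. The 12 organoids of Set 4 at passage 4 overlapped the 1167 CPM of Malat1, the 208 CPM of Neat1 and the 23.5 CPM of Kcnq1ot1 in the bulk of Set 4 at passage 4, and were below it in the hosts by 2.82-, 2.57- and 3.61-fold, where 26.5% of genes were below and 50.4% did not overlap. The low level of nuclear RNAs in bulk passage 11 had no counterpart in the single organoids of Set 1 at that passage.

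**Figure D4:**
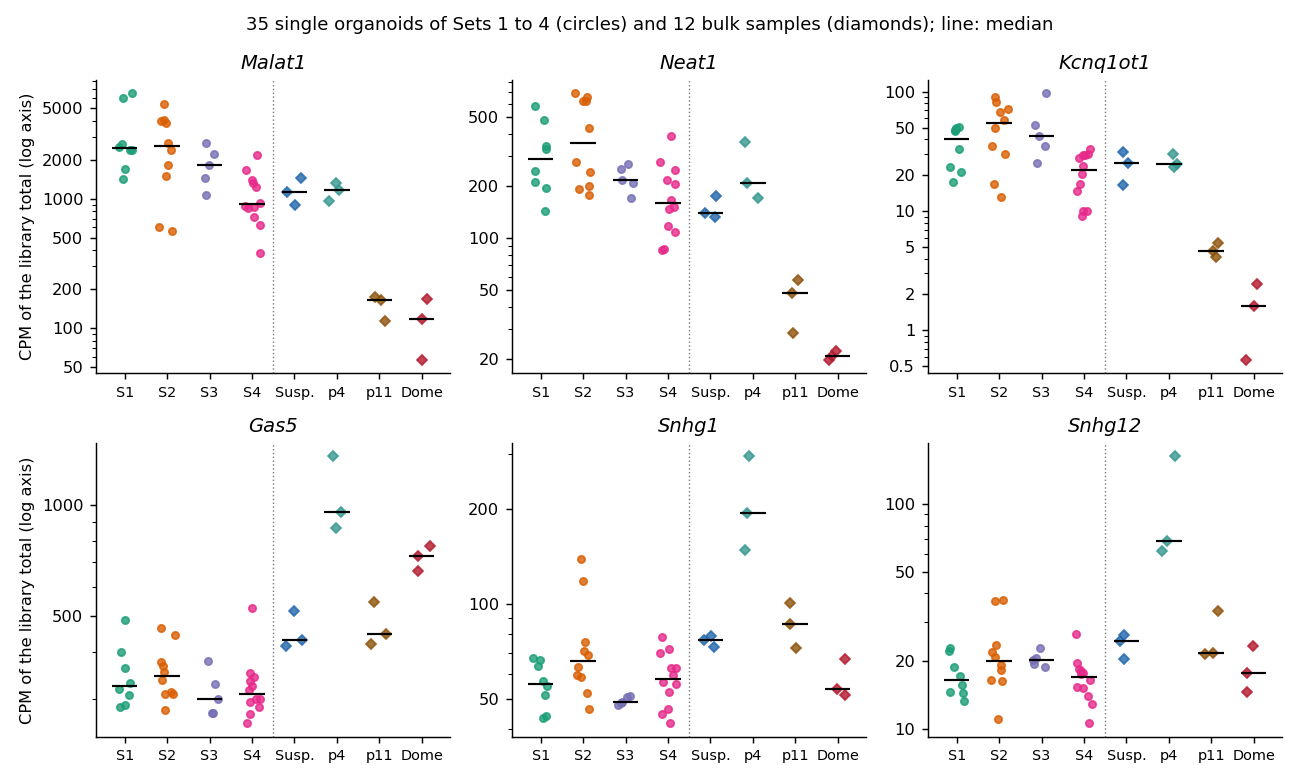
CPM of the library total (log axes) of each member in 35 single organoids of Sets 1 to 4 (circles, S1 to S4) and in bulk Suspension, passage 4 (p4), passage 11 (p11) and Dome samples (diamonds, 3 each), with a line at each median. Malat1, Neat1 and Kcnq1ot1 of the organoids lie above all p11 and Dome samples, while Gas5, Snhg1 and Snhg12 lie below all p4 samples.

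As a summary of each library, the log2 ratio of the summed nuclear to the summed host level, which Malat1 and Gas5 dominate, was -3.36 to -1.94 in Dome, -2.22 to -1.12 at bulk passage 11, -0.09 to 0.37 at bulk passage 4, 1.04 to 1.63 in Suspension and 0.23 to 4.35 in single organoids. Dome and passage 11 libraries were below 0 throughout, and Suspension libraries and single organoids above 0. The nuclear sum at passage 4 was 1165 to 1699.5 CPM, a range that overlapped the 1087 to 1606 CPM of Suspension, while the host sum was 1079 to 1810 CPM at passage 4 and 520 to 619 CPM in Suspension.

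**Figure D5:**
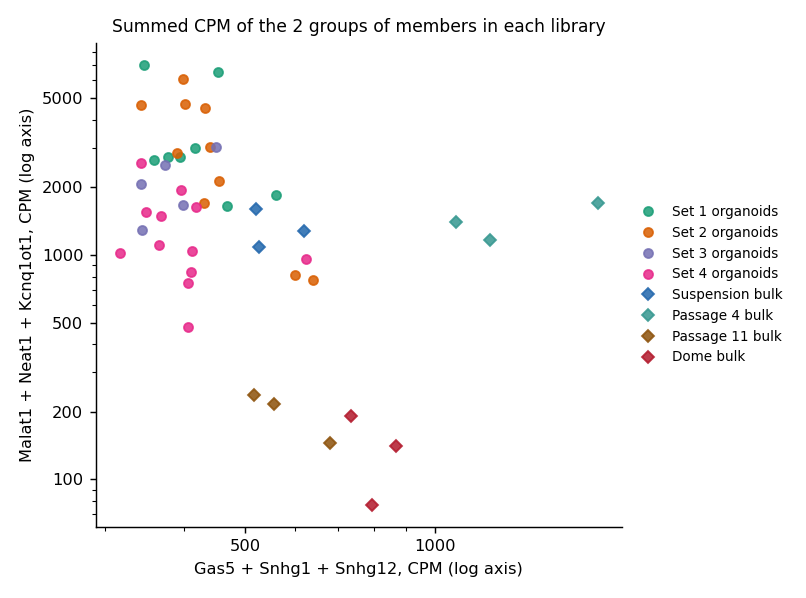
Summed CPM of Malat1, Neat1 and Kcnq1ot1 against summed CPM of Gas5, Snhg1 and Snhg12 (log axes) in each library, with circles for 35 single organoids and diamonds for 12 bulk samples. Dome and passage 11 samples lie at the bottom with nuclear sums up to 238 CPM, the organoids at the upper left, and passage 4 samples at the upper right.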

How the data were processed

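Libraries were 3′-end RNA-seq of bulk cultures and single organoids, made with unique molecular identifiers. The authors deposited counts per Ensembl gene in 3 tables, with zUMIs named in the methods for processing and GRCm38 with Ensembl 93 genes as reference. R 3.6.3, SAMtools 1.9, edgeR 3.28.1 and limma 3.42.2 stand in the submitters' processing notes. The sources used here do not say whether the counts are molecules or reads, include introns or used strand. The 3 tables were never tested against each other. Columns were matched to samples by their labels, and the 2 technical replicates of each passage sample were summed.

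Counts were tested with edgeR 4.0.16 in R 4.3.3 by its quasi-likelihood F-test after TMM normalisation, on genes passing filterByExpr with a minimum count of 3, with BH adjustment at 0.05. The 3 Dome were compared with the 3 Suspension samples, the 3 cultures at passage 11 with passage 4, and Set 1 with Sets 2 to 4 and all pairs of sets in a fit of the 35 kept organoids. Log2 CPM used a prior count of 2. Correlations were tested with 100000 permutations within sets. Alternatives were RLE size factors, library totals with and without mitochondrial genes, other filters, thinned counts, limma-voom (limma 3.58.1), DESeq2 1.42.0, a replicate block, each replicate left out, technical replicate 1 or 2 alone and all 42 organoids. The fit was tested on simulated data.

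Same-numbered samples deviated together across the culture formats, with correlations of 0.15, 0.16 and 0.19 of their deviations from the group means. In the passage experiment they came from the same mouse (0.11, 0.03 and 0.11). P-values of the culture formats and of passage measure the spread between the samples of a group. P-values between sets measure the spread between single organoids within sets. Each set of organoids is 1 mouse at 1 passage, so those p-values do not measure the spread between mice. In chi-square tests of the counts, the value divided by its degrees of freedom was 1.08 to 2.55 for technical replicates, at least 4.61 for culture replicates and at least 2.19 for single organoids of a set. No pair outside the technical replicates was treated as a repeat of the same library.

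Named genes were the members, the 3 called genes of each list with the largest changes, and the 3 genes most like each member in r, apart from 1 list gene that is not reported here. The members and lists were chosen with earlier results of these data known.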

Additional observations from a re-analysis of the deposited data

How the results depend on the processing

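The calls of Malat1, Neat1 and Kcnq1ot1 between culture formats, of all 6 members between passages and of Malat1 in Set 1 were the same under every alternative run. Gas5 between culture formats kept its direction, and leaving out each replicate gave log2 fold-changes of 0.87 to 1.21, with the call lost without Suspension replicate 1 or 3. Leaving out each replicate in turn gave 929 to 1976 higher and 950 to 1921 lower genes for the culture formats, 736 to 1146 higher and 816 to 1109 lower for passage, 176 to 222 higher for Set 2 over Set 3, and 612 to 1246 higher and 191 to 649 lower for Set 3 over Set 4. With the replicate block, the log2 fold-changes between culture formats were -3.02 for Malat1, -2.42 for Neat1, -3.47 for Kcnq1ot1, 1.07 for Gas5, -0.03 for Snhg1 and 0.02 for Snhg12, and no member call changed there or between passages, where they were -2.94, -2.45, -2.51, -1.15, -1.26 and -1.85. The single organoids share only numbers between sets.

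The counts of genes called were less stable, and where no construction is named the cause was not tested. Between culture formats, 1907 genes were higher and 1872 lower, against 849 and 3034 with the library total and 799 and 3194 with the total without mitochondrial genes. Between passages, 1392 were higher and 1392 lower, against 918 and 893 after thinning and 867 and 850 with technical replicate 1 alone, both of which hold fewer counts. Thinning also gave 833 and 556 for Set 1 over Sets 2 to 4 (1436 and 1076), 587 and 570 for Set 1 over Set 2 (986 and 1002), 330 and 401 for Set 1 over Set 3 (599 and 715), 1030 and 635 for Set 1 over Set 4 (1721 and 1059), 595 and 449 for Set 2 over Set 4 (977 and 745), and 698 and 275 for Set 3 over Set 4 (1099 and 511). The replicate block gave 928 and 656, 488 and 409, and 546 and 185 for the last 3 of these. All 42 organoids gave 1139 higher, 581 and 396, and 543 and 173 for the same comparisons, and 121 and 131 for Set 2 over Set 3, where 286 and 262 became 83 and 97 when adjusted within that comparison. Without Set 2 organoids 2 and 6, an alternative chosen after seeing the data, 6 of 12 correlated pairs remained. Depth limits Kcnq1ot1 most, with as few as 1 count in a Dome library.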

Other observations

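The 7 single organoids that the study left out had Malat1 from 565 through a median of 1427 to 6090 CPM, Neat1 from 211 through 268 to 531 CPM and Kcnq1ot1 from 12.1 through 33 to 43.4 CPM. Their Gas5 ranged from 265 through 320 to 482 CPM, Snhg1 from 76.1 through 97.7 to 125 CPM and Snhg12 from 13.8 through 28.4 to 44.2 CPM. The lowest Snhg1 value among them was above the 56.7 CPM median of the 35 kept organoids. Set 2 organoid 8 was among them, with a log2 ratio of nuclear to host sums of 0.43, beside 0.44 and 0.27 in Set 2 organoids 2 and 6.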
